A study of Drosophila melanogaster with 2 samples.

Results

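The small heat shock genes of Drosophila melanogaster lie side by side on chromosome arm 3L at cytological position 67B. The 7 listed genes were Hsp22, Hsp23, Hsp26, Hsp27, Hsp67Ba, Hsp67Bb and Hsp67Bc, of 13945 protein-coding genes on the 6 arms used here. They were taken by name as genes of this locus, not by a measured value, but with earlier results of these data known. Whether each of the 7 encodes a small heat shock protein was not checked. Of the 7 names, 6 matched an annotated gene directly, and Hsp67Bb matched CG4456 through its RefSeq synonym. The genes span 14184 bp, from 9371511 to 9385694 on build dm6, and the locus described here adds 5 kb on each side, giving 24.2 kb from 9366511 to 9390694. Of the 30000 regions of the pooled list, 15 lay in it.

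The data come from chromatin immunoprecipitation and sequencing (ChIP-seq) of whole embryos of both sexes, collected from 0 to 24 h of age, with 2 biological replicates numbered 2 and 3. The flies were of the Camta-MiMIC-GFP strain, in which an eGFP exon in an intron of Camta yields a fusion protein made from the Camta gene itself, and chromatin was precipitated with an antibody against GFP. All embryos belonged to this 1 group, so no untreated or heat-shocked embryos can be set against it, and no contrast was tested. Each region carries a signal value, the authors' measure of its enrichment, which is ranked here only within its list. No file gives read counts, so the depth is unknown.

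Small heat shock proteins are chaperones that hold unfolding proteins without using ATP, and share an alpha-crystallin domain. In flies, Hsp22 is found in mitochondria, Hsp23 and Hsp26 in the cytosol, and Hsp27 in the nucleus. After heat shock, the factor Hsf binds inverted GAA units, called heat shock elements, in their promoters, and GAGA factor keeps the Hsp26 promoter accessible beforehand. Several of the genes are also switched on without heat during development. Camta is the fly calmodulin-binding transcription activator.

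The 250 bases upstream of 3 start sites are shown first, because 2 of them hold the only peaks of the locus that passed the irreproducible discovery rate (IDR) threshold, while the third, of Hsp23, has no region in any list. The bases are from the RefSeq Release 6 assembly on build dm6, written 5' to 3' on the strand of the gene. Capitals mark matches to the heat shock element (GAANNTTC or TTCNNGAA) and to TATAAA on either strand. Hsp27 is the plus-strand sequence of chr3L:9383813-9384062, Hsp26 the minus-strand sequence of chr3L:9377428-9377677, upstream of its outer start site, and Hsp23 the plus-strand sequence of chr3L:9381632-9381881.
Hsp27: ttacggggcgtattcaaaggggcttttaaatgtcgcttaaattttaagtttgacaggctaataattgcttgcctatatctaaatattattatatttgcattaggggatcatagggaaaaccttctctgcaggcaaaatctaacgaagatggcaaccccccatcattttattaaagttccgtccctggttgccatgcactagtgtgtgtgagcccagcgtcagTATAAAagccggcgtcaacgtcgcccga
Hsp26: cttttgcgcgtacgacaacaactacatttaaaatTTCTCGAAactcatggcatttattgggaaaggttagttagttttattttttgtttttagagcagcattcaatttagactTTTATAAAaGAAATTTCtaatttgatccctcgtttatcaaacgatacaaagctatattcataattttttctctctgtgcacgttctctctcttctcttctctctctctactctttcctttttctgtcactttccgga
Hsp23: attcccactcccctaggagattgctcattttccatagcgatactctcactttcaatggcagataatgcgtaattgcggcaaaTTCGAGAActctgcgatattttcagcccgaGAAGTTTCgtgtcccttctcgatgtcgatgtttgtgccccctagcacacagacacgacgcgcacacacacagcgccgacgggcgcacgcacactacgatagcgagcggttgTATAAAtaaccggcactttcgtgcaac
The pooled summit is base 88 of the Hsp27 sequence and base 139 of the Hsp26 sequence. None of these 250-base windows overlaps an annotated exon.

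Enrichment of tagged Camta in the cluster was concentrated at Hsp27 and Hsp26. Of the 7 genes, 2 carried an IDR summit at a promoter, taken as 500 bp to either side of an annotated start, beside 18.8% of all protein-coding genes. At 2 of 7 the count is not read as a result about the cluster. Both genes were also the ones called among the 4033 strongest regions of each replicate alone, as many as there are IDR peaks, which called 18.0% of protein-coding genes in replicate 2 and 18.9% in replicate 3.

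At Hsp27, which encodes the nuclear member of the family, the peak ran from 9383772 to 9384057 with its summit at 9383900, 163 bp upstream of the single start site. Its signal value was 625 in the pooled list, 235 in replicate 2 and 377 in replicate 3. It ranked 100 in the pooled list, 102 in replicate 2 and 106 in replicate 3, so the replicates placed it almost equally high. Their summits lay 167 and 168 bp upstream of the start site, 1 bp apart. The peak was 286 bp wide. Of the 4033 IDR peaks, 598 (14.8%) were this wide or narrower, and 3239 had the usual width of 424 bp.

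At Hsp26, which encodes a cytosolic member, the peak ran from 9377327 to 9377750 with its summit at 9377539. Its signal value was 315 in the pooled list, 135 in replicate 2 and 188 in replicate 3, with ranks of 516, 423 and 548. The summit lay in intergenic sequence, 112 bp upstream of the outer start site of Hsp26 and 263 bp from the 3' end of Hsp67Ba, which is transcribed towards it. The replicate summits were 33 bp apart, at 83 bp upstream of the outer start site in replicate 2 and 116 bp in replicate 3. The gene has another start site 52 bp further in, at 9377375, and from there the pooled summit was 164 bp upstream, beside 163 bp at Hsp27. The replicate summits were 135 and 168 bp upstream of that inner start, beside 167 and 168 bp at Hsp27, so the near-equal spacing did not hold in replicate 2.

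Both peaks were strong among all IDR peaks. The signal value at Hsp27 was 4.26 times the median IDR peak of 147, and that at Hsp26 was 2.15 times. Among the 2045 IDR peaks near a protein-coding start site they ranked 58 and 299. Within each list the Hsp27 peak was the stronger, by 1.98 times in the pooled list, 1.74 times in replicate 2 and 2.01 times in replicate 3. Both had the lowest q value of the IDR list, 0.000144, which 3462 of the 4033 peaks share, so the q value does not rank them.

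**Figure D1:**
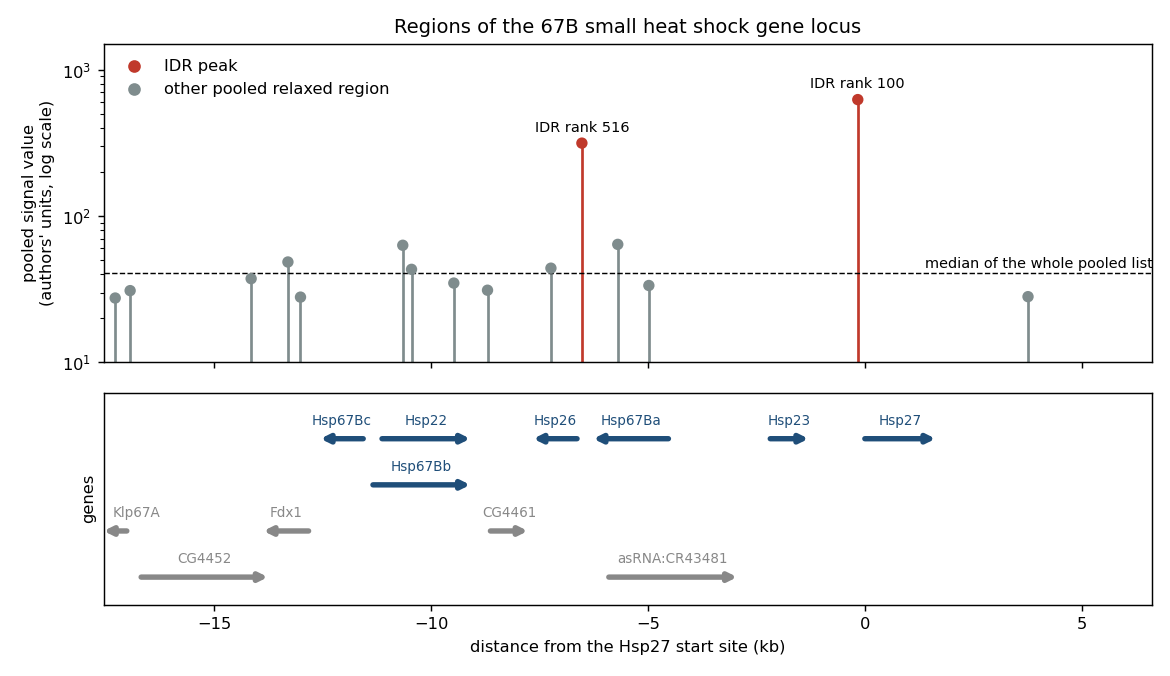
Signal value of the 15 pooled regions (vertical axis, log scale, authors' units) by distance of the summit from the Hsp27 start site (horizontal axis, kb), with arrows for the 7 listed genes (blue) and for other genes that start in the locus (grey). The IDR peaks at Hsp27 (625) and Hsp26 (315) stand above the other 13 regions, which reach 64; the dashed line is the median of the whole pooled list, 41.1.

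The other 5 genes had no IDR peak near a start site. Hsp67Ba and Hsp23 had their nearest IDR summit 1995 and 2018 bp away, at Hsp26 and Hsp27. For Hsp22, Hsp67Bb and Hsp67Bc the nearest was the Hsp26 summit, at 3542, 4608 and 5042 bp. The relaxed lists, made before any threshold and holding background as well as peaks, gave 3 of these genes a weak region. With any pooled relaxed summit counted, promoters of 5 of the 7 genes had one, beside 53.2% of all protein-coding genes. In the list of replicate 2 alone it was 5 of 7 beside 52.6%, and in that of replicate 3 it was 4 of 7 beside 51.3%. With only pooled summits at q values up to 0.01, the genes called were Hsp26 and Hsp27, 2 of 7 beside 24.4%.

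Hsp22 and Hsp67Bb share a start site at 9372931, and the strongest weak region near it cannot be assigned to either gene alone. It ran from 9373197 to 9373620, with its summit 478 bp downstream of that start site, in a coding exon of Hsp67Bb. Its signal value was 63.1 in the pooled list, with rank 7307 and a q value of 0.0466. Of the regions overlapping it, the strongest had a signal value of 31.8 in replicate 2, with rank 6045, and 40.7 in replicate 3, with rank 6771. Those replicate summits were 250 bp apart. A second pooled region, from 9373399 to 9373822, with signal 43.2 at rank 13739, overlapped the first, and its summit was 386 bp upstream of the inner start site of Hsp22, which encodes the mitochondrial member, in a 5' UTR of that gene.

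Hsp67Ba had a single pooled region at its promoter, of signal value 33.5 and rank 21583, with its summit 451 bp inside the gene in its coding exon. Replicate 2 listed it at 21.9 with rank 11975, and replicate 3 listed no region there. Hsp67Bc, whose product works with the co-chaperone Starvin in autophagy, had no relaxed summit at its promoter in the pooled list, where the nearest was 912 bp upstream. In the replicates the nearest lay 584 and 634 bp upstream. Around Hsp23, which encodes a cytosolic member, no list held a region, at its promoter or in the gene. The longest stretch of the locus between pooled regions ran for 4477 bp, from 9379295 to 9383771, and contained the whole gene.

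Outside the 2 IDR peaks, the pooled regions of the locus were weak. The 13 others had signal values from 27.5 to 64, with a median of 34.8, in a list whose lowest value is 27.4 and whose median is 41.1. Of the 13, 5 were above that median and 8 below it. Their ranks ran from 7142 to 29800 of 30000 and their q values from 0.0429 to 0.892. The IDR peak at Hsp26 was 4.92 times the strongest of them in the pooled list, 4.25 times the strongest in replicate 2 and 4.62 times in replicate 3. The strongest was not at a listed start site. It ran from 9378154 to 9378577 at a signal value of 64. The summit was in the coding exon of Hsp67Ba and 206 bp downstream of a start site of asRNA:CR43481, a non-coding RNA transcribed on the opposite strand. Replicate 2 listed it at 27.2 with rank 7988 and replicate 3 at 33.5 with rank 9335.

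The remaining weak regions lay at other genes or inside gene bodies. Klp67A, which encodes a mitotic kinesin, had a pair with signal values of 27.5 and 30.9. Of its summits, 1 was 172 bp downstream and the other 77 bp upstream of a Klp67A start, and the latter lay 254 bp from the start site of CG4452. Fdx1, which encodes a ferredoxin, had a pair of 48.5 and 27.9, with summits 297 and 7 bp downstream of the nearest start site. CG4461, another member of the small heat shock protein family that lies within the cluster, had one of 31.1 with its summit 67 bp upstream. In coding exons away from start sites stood 4 regions, in CG4452 with a signal value of 37.3, in Hsp22 with 34.8, in Hsp26 with 44 and in CG4080 with 28.1. Replicate 3 listed no region overlapping those in CG4452 and at CG4461, which ranked 9337 and 28124 in replicate 2. Replicate 2 listed none overlapping those in Hsp26 and CG4080, which ranked 8971 and 14958 in replicate 3. For the others the strongest overlapping regions in replicates 2 and 3 ranked 16452 and 27260 for the Klp67A pair. They ranked 6341 and 21576 for the Fdx1 pair, and 21191 and 27143 for Hsp22. None of Klp67A, CG4452, Fdx1, CG4461 and asRNA:CR43481 carried an IDR summit at a promoter.

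The replicates shared the strong peaks and only part of the weak regions. Of the 15 pooled regions, 10 were overlapped by at least 1 base in both replicates, 3 in replicate 2 only and 2 in replicate 3 only. Neighbouring pooled regions can meet the same replicate region, so these are not 10 separate matches, and with at least 50% of the pooled region covered the count was 6. For all 10 the strongest overlapping region ranked higher in the list of replicate 2 than in that of replicate 3. In the locus replicate 2 listed 13 regions and replicate 3 listed 14, of which 2 and 1 met no pooled region. In each replicate only the regions at Hsp26 and Hsp27, 2 in all, reached a q value of at most 0.01. The 3 lists of relaxed regions were made with 1 further file in common, so overlap between the replicates is not overlap of fully independent lists.

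**Figure D2:**
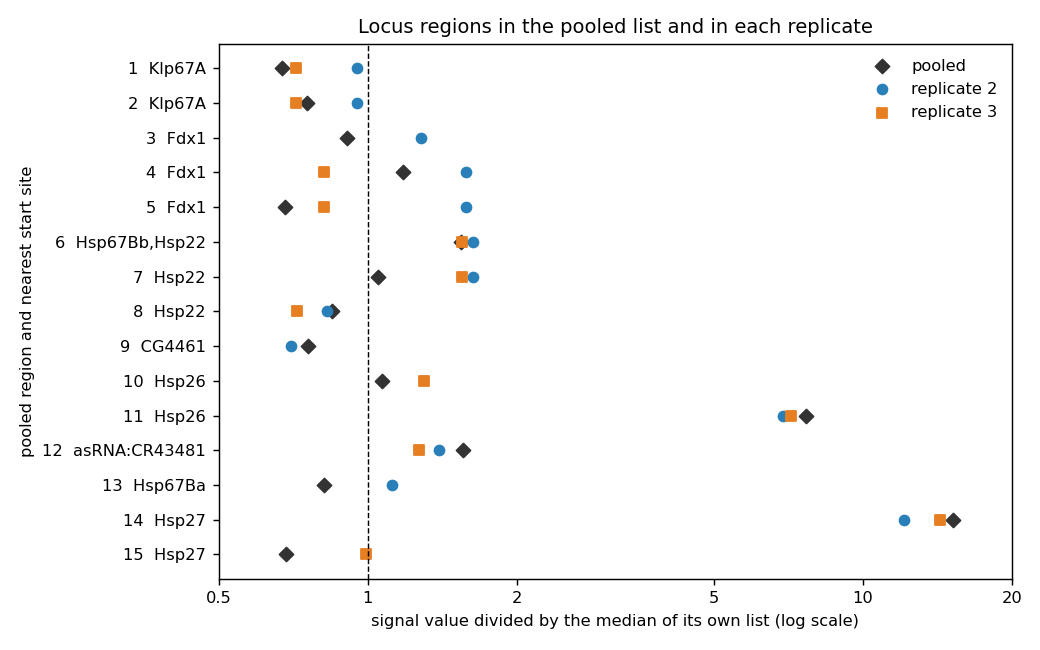
Signal value of each pooled region of the locus, and of the strongest region overlapping it in each replicate, divided by the median of its own list (horizontal axis, log scale); rows are numbered along the arm and carry the nearest start site, and a missing symbol means that no region overlapped. At Hsp27 the values are 15.2 in the pooled list, 12.1 in replicate 2 and 14.3 in replicate 3, at Hsp26 7.68, 6.89 and 7.15, and no other region exceeds 1.63.

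The locus held more relaxed regions than most stretches of its length and was less unusual in IDR peaks. Along the arms there are 5533 adjoining windows of 24184 bp, the length of the locus. They held 5.42 pooled regions on average with a median of 5, and 240 of them (4.34%) held 15 or more. For IDR summits the mean was 0.729 and 1047 windows (18.9%) held 2 or more. These shares describe where the locus stands and are not a test, since the locus was chosen for its genes, with earlier results of these data known. Some of the 15 regions overlap each other, and 9 were left with nothing added beyond the genes, a shorter span for which no share was computed. Of the 13 outside the IDR peaks, 8 were at or below the median of the pooled list, which holds background as well as peaks.

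What the promoters of the 7 genes share was read from the sequence. Together they have 9 distinct start sites. A heat shock element stood in the 250 bases upstream of 6 of the 9, beside 13.2% of the 19253 start sites of protein-coding genes. TATAAA stood upstream of 8 of the 9, beside 39.6%, and in 6 of the 9 a forward TATAAA lay between 20 and 40 bases upstream, beside 6.19%. That window was chosen after seeing the data, and the Hsp67Bb match, from 40 to 35 bases upstream, lies at its edge. GAGAG, or its complement, stood upstream of 5 of the 9, beside 29.1%. Some windows overlap, and both Hsp26 windows share most of their bases. Hsp67Bc and the outer start site of Hsp67Bb, which point away from each other, share 1 heat shock element and their TATAAA matches. The TATAAA match nearest that Hsp67Bb start is also the only match of the start site shared by Hsp22 and Hsp67Bb. The matches are therefore not all separate. The DRE (TATCGATA) was upstream of none, beside 6.9%, its core CGATA upstream of 4, beside 41%, and CGCG, the core of the sequence that Camta binds in vitro, upstream of 2, beside 34.2%. Matches to GAGAG can overlap each other on the same strand, TATAAA can overlap its own complement, every DRE holds its core, and each window counts once per motif. A match is a description of letters and not a bound site.

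In the 250 bases upstream, Hsp27 and Hsp26 differed in the heat shock element and GAGAG, and shared the position of a TATAAA match. Hsp27, with the strongest peak, had no heat shock element, no GAGAG and no CGCG in the 250 bases shown, and 1 TATAAA from 28 to 23 bases upstream. Its nearest heat shock element, GAAGTTTC, lay 168 to 175 bp from the summit on the far side from the gene, outside the peak. On that side GAGAG stood 104 to 108 bp from the summit, inside the peak and beyond the bases shown, and overlapping matches to its complement began 152 and 154 bp away, outside the peak. At Hsp26 the element GAAATTTC lay 9 to 16 bp from the summit, and TTCTCGAA stood further upstream. Another element, GAAGTTTC on the plus strand, lay 172 to 179 bp from the summit on the far side from the gene. It was inside the peak and beyond the bases shown, as were GAGAG matches from 163 to 186 bp. On the side of the gene, TTCTAGAA stood 49 to 42 bases upstream of the inner start site, inside the peak. Upstream of that start TATAAA lay from 28 to 23 bases, the same place as at Hsp27. Each Hsp26 window of 250 bases held 6 GAGAG matches. Both IDR summits of the locus were in sequence poor in G and C, at 30.7% for Hsp27 and 26.7% for Hsp26 in 101 bp around the summit, beside medians of 34.7% over all IDR peaks, 43.6% over the pooled list and 52.5% over the other 13 regions of the locus. The lowest share in the locus, 19.8%, was at a weak region beside Klp67A. The part of base composition in the signal values was not tested.

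Hsp23 had matches and no region. Its 250 bases held the heat shock elements TTCGAGAA and GAAGTTTC, from 168 to 161 and from 138 to 131 bases upstream. They also held TATAAA from 27 to 22 bases upstream, 1 GAGAG match, 1 CGCG and 3 matches to CGATA. No list held a region there. The inner start site of Hsp22 had 2 heat shock elements, 87 to 80 and 188 to 181 bases upstream, and 4 GAGAG matches, with no IDR peak. Hsp67Ba had no match to the heat shock element, GAGAG or TATAAA. In windows of 101 bp around the 15 pooled summits, a heat shock element was present in 1, that of Hsp26 (6.67%), beside 6.05% of IDR summits and 4.51% of pooled summits, and CGCG in 2 (13.3%), beside 11.6% and 17.7%.

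**Figure D3:**
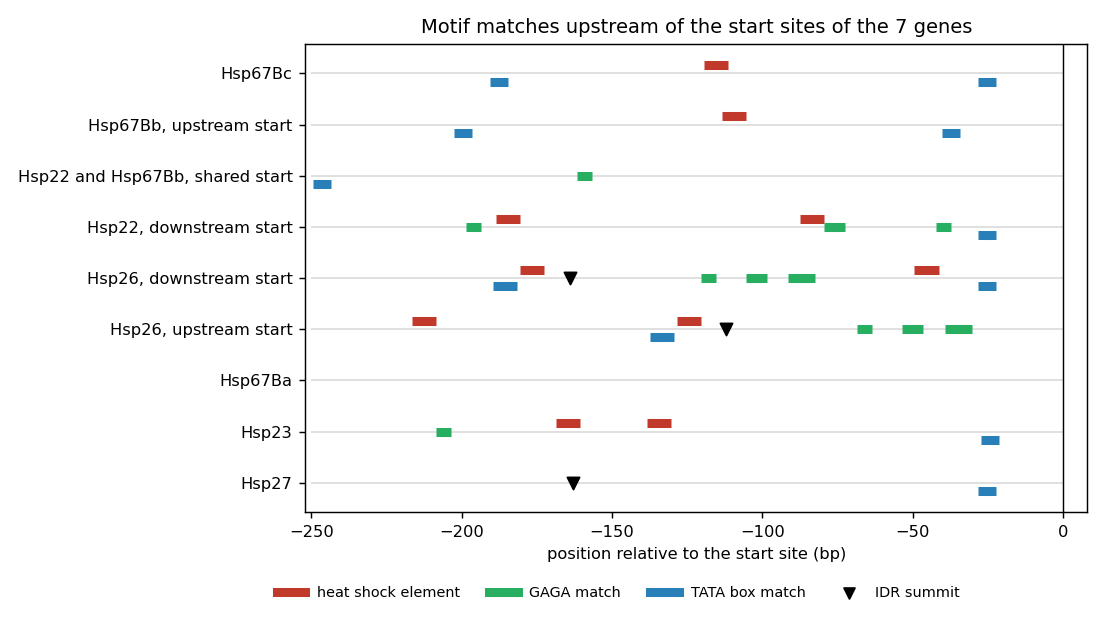
Matches to the heat shock element (red), GAGAG (green) and TATAAA (blue), on either strand, in the 250 bp upstream of each distinct start site of the 7 genes (horizontal axis, bp from the start site), with IDR summits as black triangles. The summits lie 163 bp upstream at Hsp27, which has only a TATAAA match, and 112 or 164 bp upstream at Hsp26, while Hsp23 has 2 heat shock elements and no summit.

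Other heat shock genes were followed through a list of 20. Of these, 15 were listed as heat shock response genes, constitutive chaperones such as Hsc70-4 among them, and 5 as small heat shock protein genes. At their promoters 5 of the 20 carried an IDR summit, all among the 15, beside 18.8% of protein-coding genes, and 12 of the 20 a pooled relaxed summit, beside 53.2%. Both counts include the non-coding gene lncRNA:Hsromega, while the background holds protein-coding genes only. The 20 include the 6 heat-inducible Hsp70 genes, counted as without a summit although their missing regions cannot be read as missing binding. The counts are therefore not closely comparable with the background, and neither is read as a result about the list. Hsp83, the fly Hsp90, had a signal value of 387 at rank 332, between Hsp27 and Hsp26, and ranked 232 in replicate 2 and 424 in replicate 3. Hsc70-4, the main constitutive Hsp70 of the cytosol, followed with 173, lncRNA:Hsromega, a heat-inducible nuclear RNA, with 143, Hsc70-3, the chaperone of the endoplasmic reticulum, with 139, and stv, which encodes Starvin, with 105. Hsc70-3 ranked 1572 in replicate 2 and 8374 in replicate 3, so the replicates differed there. The summits at Hsc70-3 and stv lay 483 and 497 bp from the start, and with a window of 250 bp 3 of the 20 carried an IDR summit.

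Of the 5 small heat shock protein genes named beside the 7, 0 had an IDR summit and 4 had a pooled relaxed summit at a promoter, beside the same 18.8% and 53.2%, and 5 genes are too few to read either count. The strongest stood at CG14207 with 86.1 and rank 4652. Hsf itself had one of 38.4 with rank 16846 and no IDR peak. The 6 heat-inducible Hsp70 genes had no summit at a promoter in any of the 4 lists. They are near-identical copies, and the sources used here do not say how reads matching several copies were treated, so the missing regions cannot be read as missing binding. Hsp68, a related heat-inducible gene, had none either.

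**Figure D4:**
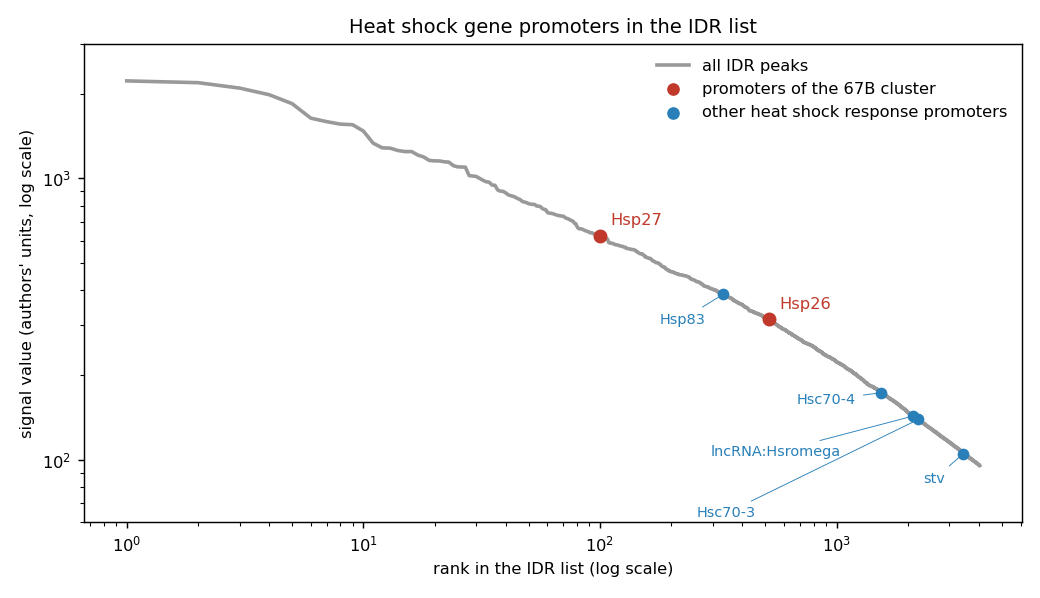
Signal value (vertical axis, log scale, authors' units) of the 4033 IDR peaks by rank (horizontal axis, log scale), with the promoters of the 67B cluster in red and the 5 other heat shock response promoters in blue. Hsp27 stands at rank 100 and Hsp26 at 516, with Hsp83 between them at 332 and the other 4 from 1549 to 3434.

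The promoters closest to Hsp27 in strength were named by rank alone, as the 2 protein-coding promoters just above and the 2 just below it in the IDR list. Those above were bves, at rank 98 with 629, and Msp300, which encodes a protein linking nuclei to the cytoskeleton, at rank 99 with 628. Those below were a start site shared in distance by CG8788 and CG44286, at rank 101 with 624, and Fer2LCH, which encodes the ferritin light chain, at rank 103 with 622. Their ranks in the replicates ran from 66 to 127 in replicate 2 and from 84 to 125 in replicate 3, around the 102 and 106 of Hsp27.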

How the data were processed

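Lists of ChIP-seq regions on build dm6 from 2 biological replicates of Camta-eGFP embryos were used. Per the file records, the authors made a relaxed list of peaks and background for each replicate and for the pool, each with 1 further file in common, and derived the optimal IDR list from those 3. Sonicated chromatin ranged from 200 to 800 in size, per the labels, which give no unit. The sources used here name no aligner or peak caller. The signal value was deposited by the authors on an unstated scale, so levels were not compared between lists. The q value was deposited by the authors as −log10. Positions, counted from 0 in the files, are printed counted from 1. The 4 lists on dm3 were not used.

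Annotation was Ensembl release 115 (dm6 coordinates) without pseudogenes and transposable elements, and sequence was RefSeq Release 6. A replicate region was matched by an overlap of at least 1 base, taking the strongest. Motif windows covered 50 bp on each side of a summit, or 250 bases upstream of a start. The 20 to 40 base window for TATAAA was chosen after seeing the data. No test was run, since there is 1 group. The members and lists were chosen with earlier results of these data known. Named genes are the 7 members, genes starting in the locus, the list of 20 and the 4 promoters nearest in rank to the strongest member. CG4080, which starts outside, is named as holding a region. Calling and motif steps were tested on simulated data. Python 3.11.15, NumPy 2.4.6, pandas 2.3.3 and matplotlib 3.10.9 were used.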

Additional observations from a re-analysis of the deposited data

How the results depend on the processing

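Of 22 alternatives planned for 6 counts, 17 stayed within 1.5 times the count reported. The 2 genes with an IDR summit and the 2 IDR regions of the locus kept those counts under every alternative run, including windows of 250 and 1000 bp. With either replicate alone each count was again 2, but by a different rule. No IDR call is possible with 1 replicate, so the genes were called from its 4033 strongest relaxed regions. The IDR list was itself derived from the relaxed lists. The 5 genes with a pooled relaxed summit became 2 with a window of 250 bp and 2 with q values of 0.01 or less, and 4 to 5 with 1 replicate's list. The 15 pooled regions became 9 with nothing added beyond the genes and 2 with q values of 0.01 or less, and 13 to 14 with 1 replicate's list. The 10 regions met in both replicates became 6 with 50% of the region covered. In each case the stricter rule by its construction admits fewer regions. The 5 other heat shock response promoters with an IDR summit became 3 with a window of 250 bp, an alternative chosen after seeing the data. The heat shock element was found at 1 summit with windows of 25, 50 and 100 bp either side. No paired analysis was possible because there is a single group. The depth of each replicate is unknown, so a missing region is not evidence that the protein was absent, and no interval is given.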
